A study of Mus musculus with 4 samples.

Results

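The cytosolic ribosomal protein genes are the subject of this report: the genes whose symbols begin with Rpl (large subunit) or Rps (small subunit) followed by a number and at most 1 further letter, plus the stalk genes Rplp0, Rplp1 and Rplp2 and the small subunit gene Rpsa. On the Affymetrix mouse array, 100 probe sets carried only such a symbol, and they stood for 46 genes, 24 of the large and 22 of the small subunit, of 18193 genes named by a probe set with a single symbol. Where a gene had several, the probe set that was brightest on average across the arrays stood for it. A further 110 probe sets carried such a symbol beside others, mostly those of pseudogenes and near copies, and 28 ribosomal protein symbols, Rplp1, Rpl3 and Rpl5 among them, occurred only there and were not analysed here.

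The 4 samples were mammary tumours from nude mice transplanted with Eph4, a long-established line of epithelial cells from the mouse mammary gland, and each tumour had 1 array. All 4 tumours grew from cells transduced with ETV6-NTRK3, a fusion of a transcription factor gene with the kinase domain of a neurotrophin receptor. The 2 tumours called Eph_EN carried only the fusion, and in the 2 called Eph_EN_DN the cells also expressed TAM67, a dominant negative version of the AP-1 subunit c-Jun. The comparison asked how far tumour formation by the fusion runs through the AP-1 complex. The labels do not state the promoter of either construct, whether the cells were a clone, the age of the mice, or whether each tumour grew in its own animal, so every p-value measures only how far these samples scatter, and that scatter may be technical. Nude mice lack a normal thymus and mature T cells, but tumours in them still hold mouse stroma and blood vessels, whose ribosomal protein transcripts the arrays cannot separate from those of the transplanted cells. In such bulk samples, fewer cells of a type and less RNA per cell cannot be told apart.

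The cytosolic ribosome is the particle that translates messenger RNA. Its small subunit holds the messenger RNA and reads the codons, and its large subunit joins the amino acids and passes the growing chain through an exit tunnel. The proteins are needed in near equal numbers, their messenger RNAs are among the most abundant in dividing cells, and many begin with a pyrimidine tract (the TOP motif) through which the mTOR pathway controls their translation. Transcription of the genes is promoted by Myc, and ETS family factors bind many of their promoters.

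For most of the ribosomal protein genes tested, the measured difference between the groups was small. Differences are Eph_EN_DN minus Eph_EN on the scale log2(intensity + 16), n = 2 tumours in each group. Of the 46 genes, 41 remained after the dimmest 40% of probe sets were left out, 22 of the large and 19 of the small subunit. Of these 41, 0 passed an adjusted p under 0.05 in limma, in a fit in which 0.555% of all 13331 genes passed, 0.135% higher and 0.42% lower. At an unadjusted limma p under 0.05 the 41 held 4 genes, or 9.76%, where all genes tested held 9.8%. The 4 were Rpl37 and Rpl12, higher in both Eph_EN_DN tumours, and Rps27l and Rplp2, lower in both. The differences had a median of 0.066 beside 0.019 over all genes, 25 were positive (61.0%, against 52.2% of all genes) and 16 negative, and 35 were smaller than 0.25 in size. The median changed sign, to -0.033, when each array was centred on its median, which also moved the median of all genes, to -0.080, and left 17 of the 41 positive (41.5%, against 61.0% as deposited). Relative to the median of all genes, that of the 41 was 0.047 higher as deposited, a gap that centring cannot move. It was 0.096 higher with quantile normalization. The gap was 0.014 without probe sets that can read transcripts of several genes (35 genes tested). Without Eph_EN tumour 2 it was 0.0075 (42 genes tested). Without Eph_EN tumour 1 the median of the 41 was 0.017. The 35 ribosomal protein genes with a mean of at least 1000 units had a median of 0.056 and 21 positive, and all 395 genes at that level (by the mean on the log2 scale, ribosomal protein genes included) had a median of -0.059, with 40.8% positive.

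**Figure D1:**
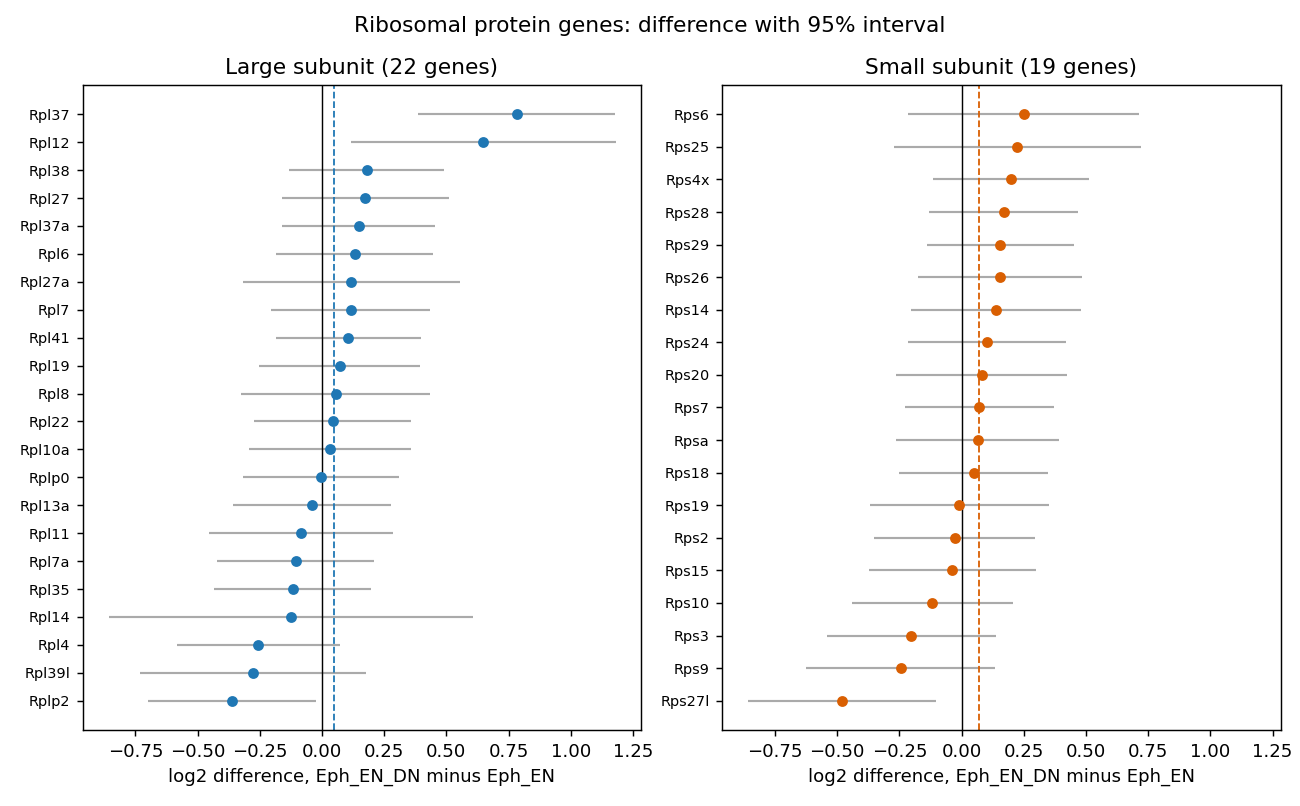
Each point is the log2 difference of 1 ribosomal protein gene (Eph_EN_DN minus Eph_EN, horizontal axis), the grey bar is its 95% interval from limma, the solid line marks 0 and the dashed line the median of the subunit (0.050 for 22 large subunit genes, 0.071 for 19 small subunit genes). Most intervals include 0; those of Rpl37, Rpl12, Rps27l and Rplp2 do not, and none of these genes passed after adjustment.

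The limma intervals reflect only the scatter of these arrays, which may be technical, so they cannot bound a change between such tumours in general. They are on the log2 scale of the differences, where the fold of a dim gene is understated. They also make no allowance for probes that read other transcripts. On that scale, the 95% interval lay within a 2-fold change in either direction for 39 of the 41 genes, and within 1.5-fold for 32. The 2 genes whose interval reached past 2-fold were Rpl37 and Rpl12. The half-width of an interval ran from 0.29 for Rpl41, which encodes the smallest protein of the ribosome, to 0.73 for Rpl14, whose probe set read only 45.1 units on average. The gap between the tumours of a group had a median of 0.14 for Eph_EN and 0.11 for Eph_EN_DN over the 41 genes, against 0.26 and 0.23 over all genes. The size of the difference between groups had a median of 0.12 for the 41 genes and 0.21 for all genes.

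Across single arrays the ribosomal protein genes moved little. Relative to the Eph_EN mean of each gene, the median of the 41 stood at -0.030 and 0.030 in Eph_EN tumours 1 and 2 and at 0.050 and 0.058 in Eph_EN_DN tumours 1 and 2. For all genes the same medians were -0.032, 0.032, 0.021 and 0.0098. The 2 Eph_EN medians mirror each other by construction, as they are measured from their own mean, and each shows only part of the distance between these tumours. The 46 chosen probe sets held 3.17% and 3.02% of the summed intensity of an array in Eph_EN and 3.13% and 3.21% in Eph_EN_DN, so that the groups overlapped in this share. Controls for RNA quality moved with the groups: the log2 signal of 18S ribosomal RNA was 5.43 and 6.40 in Eph_EN against 6.76 and 7.43 in Eph_EN_DN, and Gapdh probes at the 3' end read 0.938 and 1.04 times those at the 5' end in Eph_EN against 1.17 and 1.11 times in Eph_EN_DN. Array medians were 35.6 and 35.9 units in Eph_EN against 38.1 and 40.8 in Eph_EN_DN. The part of these array measures in the small differences of ribosomal protein genes was not tested.

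Large and small subunit genes did not separate. The large subunit had a median difference of 0.050, with 13 of 22 positive, and the small subunit one of 0.071, with 12 of 19 positive. The large minus small gap was -0.021. By array this gap was -0.010 and 0.010 in Eph_EN tumours 1 and 2 and -0.053 and -0.0042 in Eph_EN_DN tumours 1 and 2. The Eph_EN values are measured from their own mean, so they mirror each other and each shows only part of the distance between these tumours. That of Eph_EN_DN tumour 2 lay between them. The large minus small gap was 0.039 without Eph_EN tumour 1, 0.015 without Eph_EN tumour 2, -0.0042 without Eph_EN_DN tumour 1 and -0.076 without Eph_EN_DN tumour 2. The ratio of summed large to summed small subunit intensity was 1.02 and 1.05 in Eph_EN and 1.02 and 1.03 in Eph_EN_DN, with overlapping groups. The lower and upper quartiles were -0.10 and 0.13 for the large and -0.032 and 0.15 for the small subunit. Without Eph_EN tumour 1 the small subunit median was 0.0013.

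**Figure D2:**
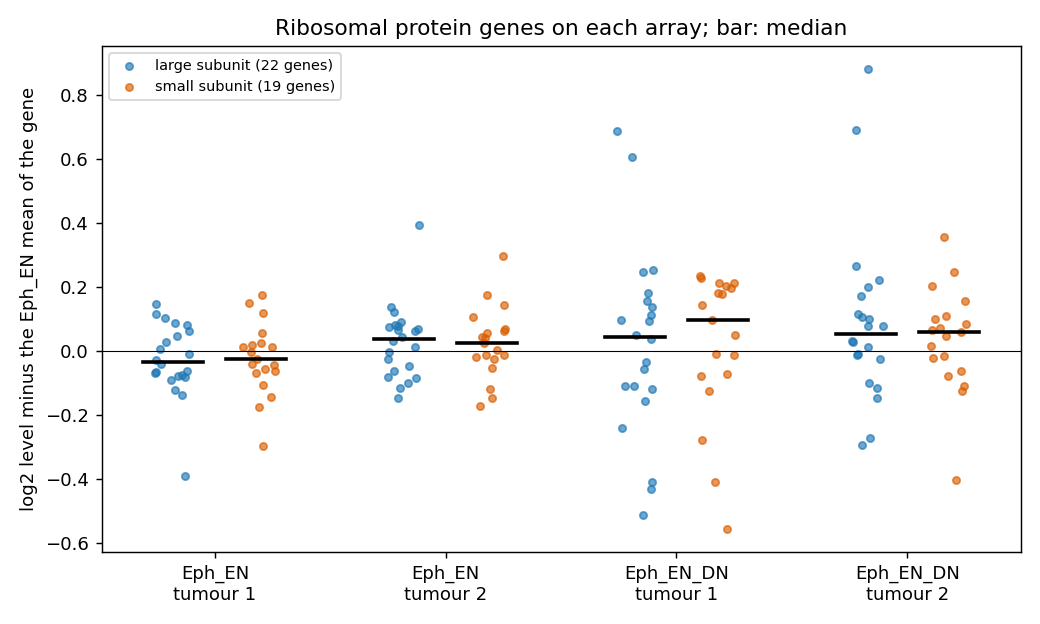
Each point is 1 gene on 1 array, as the log2 level minus the mean of that gene over the Eph_EN tumours (vertical axis), for 22 large subunit genes (blue) and 19 small subunit genes (orange); horizontal spread of points has no meaning and bars are medians. The medians lie between -0.036 and 0.096 on every array, and the highest points in the Eph_EN_DN tumours are Rpl37 and Rpl12.

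Rpl37, a zinc-binding protein of the large subunit, had the largest difference. It read 1149.8 and 1289.8 units in Eph_EN tumours 1 and 2, and 1968 and 2255 in Eph_EN_DN tumours 1 and 2. Both Eph_EN_DN tumours were higher than either Eph_EN tumour. The difference was 0.78 ± 0.19 (SE, limma adjusted p = 0.0859), a 1.72-fold ratio, with a 95% interval from 0.39 to 1.18. It was positive in every fit that held it, from 0.68 with median centring to 0.88 with quantile normalization or without Eph_EN_DN tumour 1, and its adjusted p ran from 0.0518 with quantile normalization to 0.507 without Eph_EN_DN tumour 2. The replicate block gave an adjusted p of 0.300. Its only probe set ends in _x_at, the array maker's mark for probes that can also read other transcripts, so the signal may include those of near copies.

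Rpl12 sits with the stalk at the site where elongation factors bind. Its probe set was dim, with 46.9 and 35.2 units in Eph_EN, near the array medians of 35.6 and 35.9. It read 70.4 and 75.6 units in Eph_EN_DN, above array medians of 38.1 and 40.8. The groups did not overlap. The difference was 0.65 ± 0.25 (SE, limma adjusted p = 0.397), and it was 0.39 with a pseudocount of 64 and 0.83 with a pseudocount of 1. A probe set this dim for a transcript that all dividing cells use says little of the level of the gene, and 2 other probe sets, which carry this symbol beside those of copies, were not analysed here.

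Rps27l, a near copy of Rps27 that p53 is known to induce, had the most negative difference of the genes tested. It read 2253 and 2211 units in Eph_EN and 1511 and 1682 in Eph_EN_DN. The Eph_EN tumours lay close together and both Eph_EN_DN tumours below them. The difference was -0.48 ± 0.18 (SE, limma adjusted p = 0.370). The other 2 probe sets of Rps27l differed by -0.48 and -0.38, with groups that did not overlap in any of the 3. These probe sets can share target sequence, and their agreement is not that of replicates. The only probe set of Rps27 itself with a single symbol read 14.2 to 35.7 units on the 4 arrays and was not tested.

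Rplp2 encodes an acidic protein that, with its partner Rplp1, forms the flexible stalk that recruits elongation factors. It read 4231 and 4204 units in Eph_EN and 3125 and 3439.7 in Eph_EN_DN, and the groups did not overlap. The difference was -0.36 ± 0.16 (SE, limma adjusted p = 0.472). The stalk base gene Rplp0, often used as a reference gene, read 5497 and 5729 units in Eph_EN and 5477 and 5719 in Eph_EN_DN. Its difference was -0.0039 ± 0.15, with an interval from -0.32 to 0.31, and its sign turned with single arrays (-0.035 to 0.027).

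**Figure D3:**
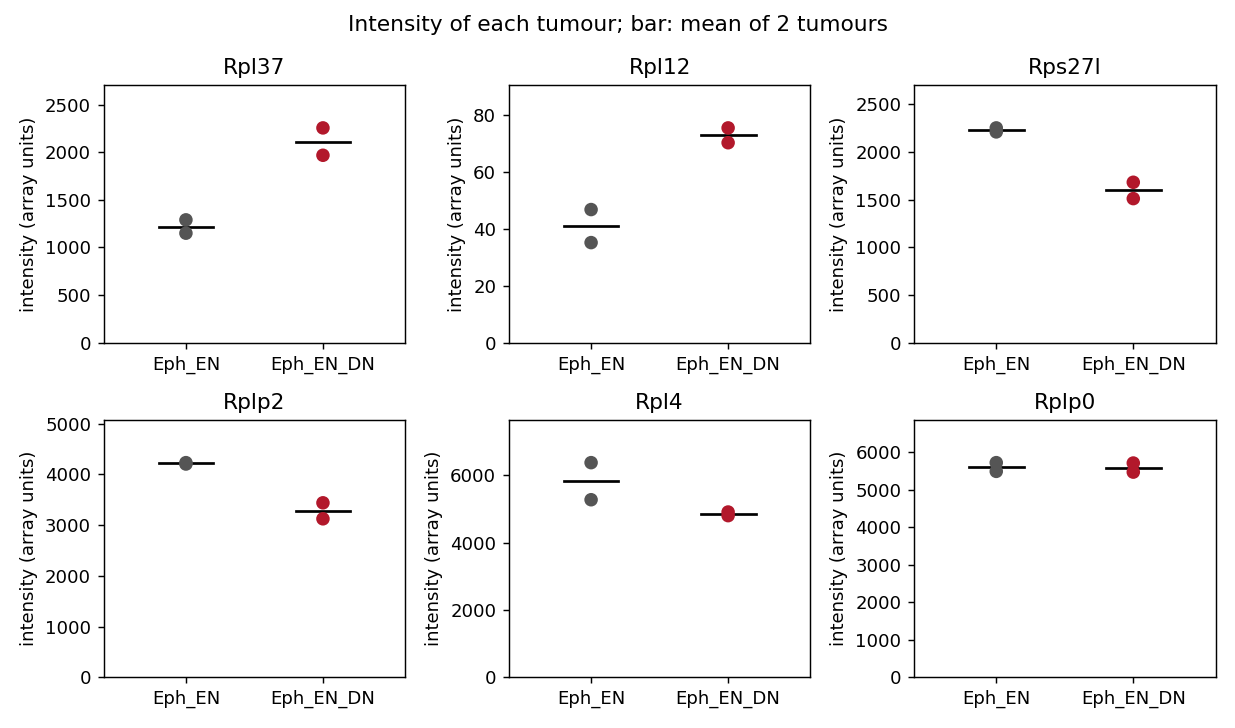
Intensity in array units (vertical axis, from 0) of 6 genes in the Eph_EN tumours (grey) and Eph_EN_DN tumours (red); each point is 1 tumour and the bar is the mean of 2. The groups are apart for Rpl37, Rpl12, Rps27l, Rplp2 and Rpl4 and overlap for Rplp0, which read between 5477 and 5729 units.

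The promoters of many, but not all, of these genes share a feature that the choice of members did not use. RefSeq promoters (assembly GRCm38.p6), 250 bases before to 50 after an annotated start, were matched by symbol for 40 of the 46 genes, 48 windows in all. The ETS core CGGAAG, on either strand, was present for 29 of the 40 genes. It lay in 62.5% of the 48 windows against 16.9% of 32851 windows of all genes, which were not matched for expression or base composition. It was present for 15 of 22 large and 14 of 18 small subunit genes. All 4 genes with an unadjusted limma p under 0.05 held it, and they lay on both sides of 0. The tested genes with the letters had a median difference of 0.069 (26 genes) and those without 0.014 (10 genes). The AP-1 letters TGANTCA were found for 1 of the 40 genes, Rpl22, in 2.08% of the member windows against 7.81% of all windows. The E-box CACGTG was found for 4 genes (10.4% of windows against 7.15%) and TATAAA, on either strand, for 5 (10.4% against 13.6%). A match describes these letters and is neither a site nor a cause. Shown are 30 bases around the first match, 5′ to 3′ on the plus strand, which is the strand of each of these genes, with the matching letters in capitals, for the 4 genes above (ETS core) and for Rpl22 (AP-1 letters):
Rpl37, chr15:5116579-5116608, match 22 bases before the start: accaagacccgcCGGAAGtagtttcctggg
Rpl12, chr2:32961530-32961559, match 170 bases before the start: gaacatttacccCTTCCGaatcccgagctc
Rplp2, chr7:141447531-141447560, match 108 bases before the start: ggaaatgtcttcCTTCCGgtgcaccctttt
Rps27l, chr9:66946084-66946113, match 10 bases after the start: ccgcctctatccCGGAAGttgctgaggggc
Rpl22, chr4:152325644-152325673, match 70 bases before the start: gtccagtctcccTGAGTCAttcgcagtggg

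Rpl22, the gene with the AP-1 letters, encodes an RNA-binding protein of the large subunit whose loss favours some tumours. It read 5570 and 5216 units in Eph_EN and 5767 and 5354 in Eph_EN_DN, with overlapping groups. The difference was 0.044 ± 0.15, and its 95% interval ran from -0.27 to 0.36. Its other 2 probe sets differed by -0.13 and -0.080, so the sign depended on the probe set.

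The other tested large subunit genes lay between -0.28 and 0.18. Rpl4, part of the wall of the exit tunnel, read 5277 and 6378 units in Eph_EN and 4912 and 4804 in Eph_EN_DN, lower in both Eph_EN_DN tumours (-0.26 ± 0.16, limma adjusted p = 0.636). Its difference was -0.12 without Eph_EN tumour 2. Rpl35, at the mouth of the tunnel, differed by -0.12 and Rpl7a by -0.11, also with groups that did not overlap. Rpl38 (0.18), Rpl27 (0.17), Rpl37a (0.15), Rpl6 (0.13) and Rpl41 (0.11) stood on the other side, each higher in both Eph_EN_DN tumours. With each array centred on its median, Rpl27 was at 0.075. Rpl41, the brightest gene of the list, read 7515 and 7970.5 units in Eph_EN and 8505 and 8166 in Eph_EN_DN, and the brightest probe set of any kind read 10239.9 units on the array of Eph_EN tumour 1. Whether signals this bright still rise in proportion to the transcript was not tested. Groups overlapped for Rpl7 (0.12), Rpl27a (0.12), Rpl19 (0.071), Rpl8 (0.056), Rpl10a (0.031), Rpl13a (-0.041), Rpl11, which binds Mdm2 when ribosome assembly fails (-0.084), and Rpl14 (-0.12).

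Among the tested small subunit genes other than Rps27l, differences ran from -0.24 to 0.25. Rps9, Rps3 and Rps2 line the path by which messenger RNA enters the ribosome. Rps9 read 2598 and 2612 units in Eph_EN and 1956 and 2466 in Eph_EN_DN, with groups apart (-0.24 ± 0.18, limma adjusted p = 0.706). It was at -0.073 with quantile normalization and at -0.078 without Eph_EN_DN tumour 1. Rps3 was at -0.20 and Rps2 at -0.028, both with overlapping groups. In the head of the subunit, Rps10 was at -0.12, Rps15 at -0.037, Rps19 at -0.0098, Rps18 at 0.049, Rps20 at 0.081 and Rps29 at 0.16. Of these only Rps29 had groups apart, with 7148 and 7409.5 units in Eph_EN and 8423 and 7799.6 in Eph_EN_DN.

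At the exit of the messenger RNA path Rps26 (0.15) and Rps28 (0.17) were higher in both Eph_EN_DN tumours, and Rps14 (0.14), on the platform of the subunit, was not. Rps28 read 6382 and 6908 units in Eph_EN and 7529 and 7405 in Eph_EN_DN (limma adjusted p = 0.744). Rps4x, encoded on the X chromosome, read 5044 and 5545 units in Eph_EN and 6068 and 6086 in Eph_EN_DN (0.20 ± 0.15, limma adjusted p = 0.710). Rps7 was at 0.071 with groups apart and Rps24 at 0.10 with groups that overlapped. Rps6, which the S6 kinases downstream of mTOR phosphorylate, had a dim probe set at 190.4 and 235.7 units in Eph_EN and 235.5 and 275.7 in Eph_EN_DN (0.25 ± 0.22), and the probe set of Rps25 was similarly dim (0.22). Rpsa, also known as a laminin receptor, read 5705 and 7283 units in Eph_EN and 6669 and 6828 in Eph_EN_DN. Its Eph_EN tumours lay on either side of both Eph_EN_DN tumours (0.066 ± 0.16), and the difference was -0.11 without Eph_EN tumour 1 and 0.24 without Eph_EN tumour 2.

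In all, the groups did not overlap for 19 of the 41 genes, 46.3% against 40.2% of all genes tested. Of these, 12 were higher in Eph_EN_DN (29.3%, against 20.2% of all genes) and 7 lower (17.1%, against 20% of all genes). For 16 of the 41 (39.0%, against 26.7% of all genes tested) the difference was larger than the gap between the tumours in both groups.

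Near copies with restricted expression also matched the naming rule. Rpl39l, a copy of Rpl39 known from testis and some tumours, read 159.4 and 176 units in Eph_EN and 122 and 149.8 in Eph_EN_DN, lower in both (-0.28 ± 0.21, limma adjusted p = 0.718). Rpl3l, the striated muscle counterpart of Rpl3, read 22.4 and 33.1 units in Eph_EN and 18.4 and 0.421 in Eph_EN_DN, and Rps4l read 4.71 to 18.4 units on the 4 arrays. Both were among the 5 genes too dim to test, with Rpl39 (12.5 to 26.1 units), Rps27 and Rps16 (1.75 to 11.1 units). For Rpl39, Rps27 and Rps16, which all cells use, such readings describe the probe sets and not the genes. Without the copies the median of the other 39 tested genes was 0.071 and the large minus small gap -0.020.

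Probe sets of the same gene set a limit on how small a difference can be read. Of the 46 genes, 23 had more than 1 probe set, and 20 had more than 1 past the filter on dim probe sets. In 13 of these 20 all probe sets had the same sign. In the other 7 (Rpl13a, Rpl22, Rps7, Rps10, Rps15, Rps18 and Rps24) the signs differed. For Rpl27 the tested probe set differed by 0.17 and the dimmer ones by 0.44 and 0.53 (limma adjusted p = 0.477 and 0.360 with every probe set tested separately), all with groups that did not overlap. The 3 probe sets of Rps28 lay between 0.16 and 0.18 and those of Rps29 between 0.12 and 0.19. Of the 46 chosen probe sets, 13 end in _x_at and 2 in _s_at, marks for probes that can read transcripts of more than 1 gene. The 15 that end in _a_at were not treated as such. Without _x_at and _s_at probe sets, 35 genes were left to test, with a median of 0.031 and 18 positive.

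**Figure D4:**
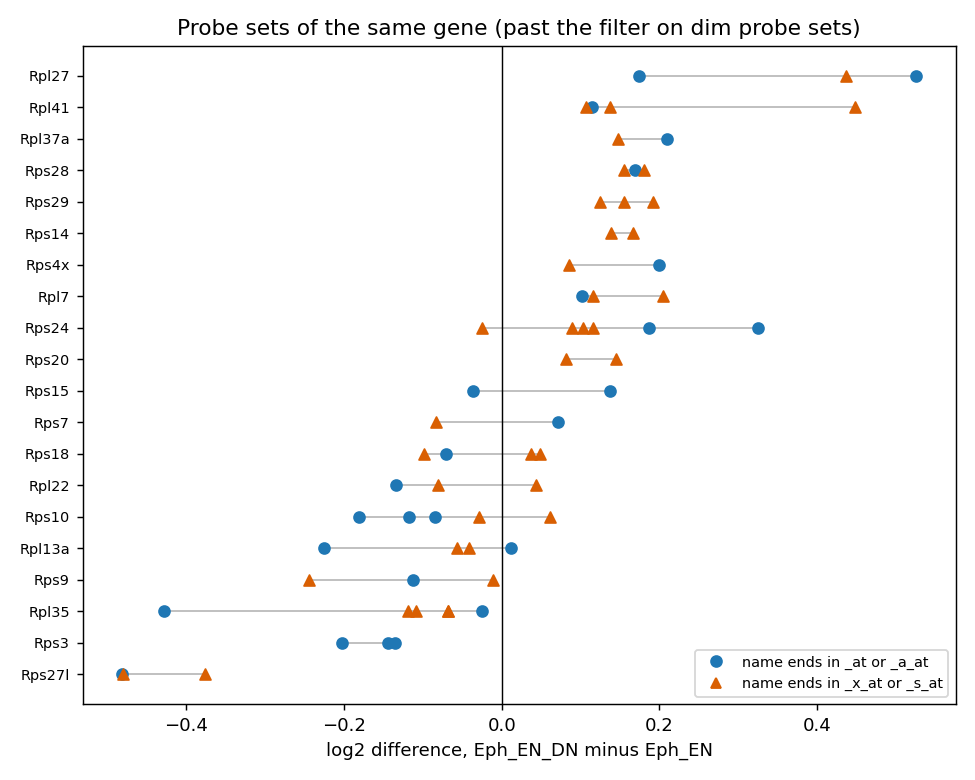
Each point is 1 probe set, placed at its log2 difference (Eph_EN_DN minus Eph_EN, horizontal axis), for the 20 ribosomal protein genes with more than 1 probe set past the filter on dim probe sets; triangles are probe sets whose names end in _x_at or _s_at. All probe sets of 13 genes lie on 1 side of 0, with those of Rps27l the lowest and those of Rpl27 the highest on average.

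Among the other lists of translation genes and their regulators, 0 genes passed the adjusted threshold in limma (0.555% of all genes did). Of 76 mitochondrial ribosomal protein genes, 0 were called, 52 were positive and the median was 0.10, with Mrps25 at 0.74 and Mrps6 at -0.67. Their median was -0.0044 without Eph_EN tumour 1 and 0.0046 with median centring. Of 36 ribosome biogenesis factors, 0 were called, 27 were positive and the median was 0.24. Wdr12, which works in large subunit maturation, differed by 0.69 ± 0.23 (limma adjusted p = 0.287) and Nop56, of the RNA methylation complex of the nucleolus, by 0.59 ± 0.26 (limma adjusted p = 0.477). Without Eph_EN tumour 1 these differences were 0.41 and 0.15, and without Eph_EN tumour 2 they were 0.97 and 1.03. Groups were apart and higher in 17 of the 36 (47.2%, against 20.2% of all genes) and lower in 3 (8.33%, against 20%), and 8 of the 36 (22.2%, against 9.8%) had an unadjusted limma p under 0.05. The median of the biogenesis factors was 0.087 without Eph_EN tumour 1, 0.41 without Eph_EN tumour 2 and 0.14 with median centring. Of 25 initiation factors, 0 were called, 16 were positive and the median was 0.12, with Eif1a and Eif3c at 0.56 each. Without Eph_EN tumour 1 that median was -0.028 and Eif3c was at 0.17. Eif1a was at 0.38 without Eph_EN_DN tumour 1. Of 14 elongation factors and other genes with TOP messenger RNAs, 0 were called and 9 were positive, with a median of 0.066 that was -0.033 with median centring. Npm1, a nucleolar chaperone, was at 0.42 and Nap1l1 at 0.39. Of 18 regulators of the Myc and mTOR pathways, 0 were called and 10 were positive. Their median was 0.010, and -0.088 with median centring. The largest values were 0.75 for the dim Rps6kb2, whose groups overlapped, and 0.55 for Rictor. Akt1 had the most negative value, -0.44. Myc itself read 138.4 and 135.6 units in Eph_EN and 113.8 and 109.5 in Eph_EN_DN (-0.26 ± 0.21, limma adjusted p = 0.727). Of 4 further ribosomal proteins or copies outside the naming rule, 0 were called: Rps3a1 was at 0.11, Rpl22l1 at -0.0051, Fau at -0.020 and Rpl7l1 at -0.22.

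**Figure D5:**
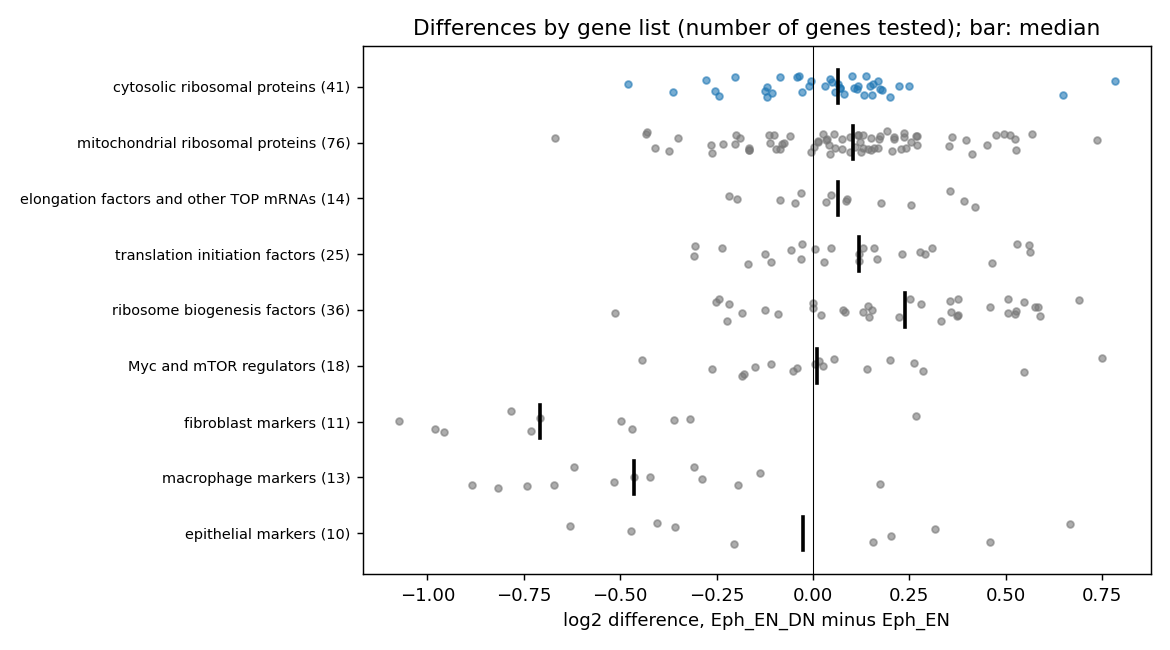
Each point is 1 gene at its log2 difference (Eph_EN_DN minus Eph_EN, horizontal axis), by gene list with the number tested; vertical spread within a list has no meaning and bars are medians. The 41 cytosolic ribosomal protein genes have a median of 0.066, the 36 ribosome biogenesis factors 0.24, the 11 fibroblast markers -0.71 and the 13 macrophage markers -0.46.

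Most lists of cell type markers had a median difference larger in size than the 0.066 of the ribosomal protein genes. The medians were 1.22 for adipocyte, -0.71 for fibroblast, -0.46 for macrophage, -0.335 for endothelial, 0.22 for muscle and -0.15 for lymphocyte markers. That of the epithelial markers, -0.025, was smaller, with 5 of 10 positive. Groups were apart and lower for 40% of these 10 (20% of all genes tested) and apart and higher for 10% (20.2% of all genes tested). The summed intensity of 8 adipocyte markers was 1012.8 and 775.1 units in Eph_EN and 1820.4 and 6507 in Eph_EN_DN, and 4 of the 8 rose (Car3, Fabp4, Adipoq and Retn), where 0.135% of all genes passed as higher. The number that passed was 2 without Eph_EN tumour 2, 1 without Eph_EN_DN tumour 2, 1 with the replicate block, quantile normalization or median centring, and 0 without the intensity trend or with a robust variance. The summed intensity of 11 fibroblast markers was 27896 and 35652 units against 24628 and 21268 (0 called, 10 of 11 negative, Lum at -1.07 and Mmp2 at -0.98, and at -0.63 and -0.50 without Eph_EN tumour 2). That of 13 macrophage markers was 24663 and 20292 against 16616 and 13323 (0 called, 12 of 13 negative, Lyz2 at -0.88, C1qb at -0.82 and Mrc1 at 0.175). The fibroblast marker Dcn, named after its value was seen, was at 0.27. For 6 endothelial markers it was 615.6 and 872.5 against 511.2 and 563.2 (0 called, Cdh5 at -0.74 and Eng at -0.70), and for 6 lymphocyte markers 451.4 and 411.7 against 374.3 and 397.2 (0 called, 3 of 6 positive, Prf1 at -0.80 and Cd4 at -0.455). Cd3e, named after its value was seen, was at 0.44 with both Eph_EN_DN tumours higher. The 4 muscle markers summed to 221.8 and 231.1 units against 354.4 and 362.5. Most of that rise lay in Myh1, at 39.0 and 59.6 units against 142.3 and 163.2, the only 1 of the 4 called. Without the intensity trend or with the replicate block 0 were called. Myh1 was at 1.385, and at 1.30 without Eph_EN_DN tumour 2, while Tnni2 was at 0.26, Acta1 at 0.19 and Ckm at -0.0044. The 10 epithelial markers summed to 3796 and 4034 units against 3210.2 and 3461, with 0 called, Krt14 at 0.67 and Krt5 at -0.63. The epithelial keratin Krt8 read 2048 and 2017 units in Eph_EN and 1596 and 1469.6 in Eph_EN_DN, far above the array medians in all 4 tumours. Of the markers tested, 0 read 0 on any array, which says little, since the dimmest probe sets had been left out first. Tested were 6 of 11 lymphocyte, 6 of 10 endothelial, 4 of 8 muscle, 8 of 10 adipocyte and 10 of 11 epithelial markers named on the array. The part of the cell mixture in the differences of single ribosomal protein genes was not tested.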

How the data were processed

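Per the labels, biotin-labelled cRNA made from the total RNA of 4 tumours was hybridised to Affymetrix mouse arrays. The authors deposited a linear intensity per array for 45101 probe sets; background correction, probe summary and scaling are not given in the sources used here. Detection calls were not used, and 4 arrays limit the precision.

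Gene symbols came from the annotation of the platform: 34945 had 1 symbol, 932 several and 9160 none (64 controls aside). The dimmest 40% by mean log2(intensity + 16) were left out, which kept 27022 and, with the brightest probe set for each gene, 13331 genes. The fold of a dim gene is understated. The comparison used lmFit and eBayes of limma 3.58.1 (R 4.3.3), letting the variance follow intensity. Tests were two-sided, with p-values adjusted by Benjamini-Hochberg over all genes, a threshold of 0.05 and no replicate term. The fit was tested on simulated data.

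The members and the 13 companion lists were chosen with earlier results of these data known. Named genes were the 5 highest and lowest differences and 3 brightest and dimmest probe sets of each subunit, the stalk genes, Rpsa and the copies; from each list up to 4 genes past the threshold, otherwise the 2 with the largest difference. Others were named after their values were seen. Alternatives covered filters, scaling, pseudocounts of 1 and 64, probe set rules, variance models, the block and each array left out. Sequences are from RefSeq (GRCm38.p6).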

Additional observations from a re-analysis of the deposited data

How the results depend on the processing

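No ribosomal protein gene passed the adjusted threshold in either direction in limma under any of 16 alternative settings. In those that kept all 4 arrays, 2 to 5 genes had an unadjusted limma p under 0.05, or 7 of 86 probe sets where each was tested separately. The 2 settings chosen after seeing the data (no copies, and a mean intensity of at least 1000) took subsets of the main fit. They could not add a call. The number of arrays and the dim probe sets limit what can be seen, and for values that moved the cause was not tested. With median centring the medians were -0.033 for all ribosomal protein genes, -0.049 for the large and -0.027 for the small subunit, -0.11 for ribosomal proteins outside the rule, -0.033 for elongation factors and TOP genes, 0.021 for initiation factors, 0.13 for muscle and -0.12 for epithelial markers, Rps18 was at -0.050 and Rpsa at -0.033, and 7 genes of all were higher, 1 of them an adipocyte marker. With quantile normalization 9 genes were higher and 29 lower, 1 adipocyte marker was higher, the elongation factor median was 0.16, Rps15 was at 0.078 and Rps18 at -0.014. With probe sets averaged by gene, 7 genes were higher and 28 lower, with 1 adipocyte and 0 muscle markers higher, medians of 0.12 (elongation factors) and 0.13 (muscle), Rps15 at 0.050 and Rps18 at -0.021. With every probe set tested separately 48 of 86 ribosomal protein probe sets were positive, and the elongation factor and epithelial medians were both 0.18. Without _s_at and _x_at probe sets the ribosomal protein median was 0.031, the large minus small gap -0.052, the muscle median 0.091, the epithelial median 0.155 and Rps18 -0.071, with 2 adipocyte markers higher. With dim probe sets kept, the epithelial median was -0.095. With the dimmest 60% left out 2 adipocyte markers were higher and 1 macrophage marker lower, and medians were 1.96 (adipocyte), 0.82 (muscle) and -0.20 (epithelial). A pseudocount of 1 or 64 left 2 adipocyte markers higher, and 64 gave 1 macrophage marker lower and a muscle median of 0.14. Without the intensity trend 1 gene was higher and 4 lower, with 0 adipocyte and 0 muscle markers, and with a robust variance 0 adipocyte markers were higher. With the tumour number as a replicate block 3 genes were higher and 8 lower. Of the higher genes, 1 was an adipocyte marker and 0 were muscle markers, and no ribosomal protein call changed. The labels do not state what same-numbered tumours share. The correlation of their deviations over genes was -0.065, which cannot settle whether they were paired, with only 2 tumours in each group.

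With each array left out in turn, the group left with 1 tumour is assumed to vary like the other, whose 2 tumours alone give the spread. In these fits 11 to 71 genes were higher and 11 to 85 lower, the ribosomal protein median ran from 0.017 to 0.072, that of the small subunit from 0.0013 to 0.12, and the large minus small gap from -0.076 to 0.039. Medians ran from -0.0044 to 0.16 for mitochondrial ribosomal proteins, -0.028 to 0.16 for initiation factors, 0.087 to 0.41 for biogenesis factors (0 to 1 higher), -0.11 to 0.22 for Myc and mTOR regulators, -0.79 to -0.32 for fibroblast (0 to 5 lower), -0.58 to -0.21 for endothelial (0 to 1 lower), -0.22 to 0.27 for lymphocyte, -0.20 to -0.00088 for epithelial and 0.17 to 0.38 for muscle markers (0 to 1 higher), with 0 to 4 macrophage markers lower (median -0.69 to -0.21) and 1 to 4 adipocyte markers higher. Signs turned for Rpl14 (-0.52 to 0.27), Rplp0 (-0.035 to 0.027), Rps10 (-0.24 to 0.0013), Rps18 (-0.012 to 0.11), Rps25 (-0.074 to 0.52), Rpsa (-0.11 to 0.24), Krt14 (-0.0089 to 1.34) and Rpl7l1 (-0.34 to 0.078).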
